A study of Mus musculus with 8 samples.

Results

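The genes described here are those of the nuclear genome that encode subunits of the mitochondrial respiratory chain and of ATP synthase. They were taken by their symbols, which begin with Nduf (complex I), Sdh (complex II), Uqcr (complex III), Cox (complex IV) or Atp5 (ATP synthase, complex V), leaving out names that hold -ps, the Ndufaf assembly factors and genes with fewer than 80 counts over the 8 libraries. Of 96 symbols of that form, 7 were left out by name and 12 for low counts, so that 77 genes remained of 47937 gene IDs in the tables. They comprised 36 genes of complex I, 4 of complex II, 8 of complex III, 12 of complex IV and 16 of complex V, and Atp5s, which is related to ATP synthase but is not one of its subunits. All 77 passed the filter on low counts and were tested in every comparison.

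RNA was sequenced from bone marrow-derived dendritic cells (BMDCs), which are grown from mouse bone marrow in GM-CSF. Cells were WT or 3xGrk-/-, and each genotype was left unstimulated or was stimulated with lipopolysaccharide (LPS), a bacterial cell wall component that matures dendritic cells, which gave 4 groups of 2 libraries. The 3xGrk-/- cells came from mice with floxed alleles of Grk2 and Grk6 (fl/fl) and Vav-iCre, which acts early in blood cell precursors, while Grk3 was deleted throughout the animal (Grk3-/-). G-protein coupled receptor kinases (GRKs) phosphorylate activated receptors, and the comparisons ask what their combined loss does to the cells at rest and after maturation. The methods describe technical replicates of RNA, and no source used here says that the 2 libraries of a group came from separate cultures, so p-values measure only the spread between these libraries, which may be technical.

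Electrons enter the chain through complex I, which oxidizes NADH, and complex II, which oxidizes succinate and is also an enzyme of the TCA cycle. They pass through ubiquinone, complex III and cytochrome c to complex IV, where oxygen is reduced, and the proton gradient built on the way drives ATP synthase. Complexes I, III, IV and V also need subunits encoded in mitochondrial DNA, and LPS is known to shift dendritic cells and macrophages from respiration towards glycolysis.

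Libraries held 4713305 to 6933358 counts on genes, of which 0.569% to 0.811% lay on the 77 genes. The targeted genes were lower in 3xGrk-/- libraries: on the log2 scale Grk2 fell by 1.11 unstimulated and 1.89 with LPS, Grk3 fell by 0.36 and 0.42, and Grk6 fell by 1.19 and 1.54, although counts on a gene include exons outside a deletion. The second LPS-stimulated 3xGrk-/- library stood apart in that Gm42418, which is no member, held 2.16% of its counts, against 0.273% to 0.638% in the others. Markers of other cells moved with genotype and with LPS. Of 8 macrophage markers, 6 were higher in 3xGrk-/- cells without LPS, where C1qa and Fcgr1 were lower, and 8 with LPS, and they summed to 2046 and 2065 CPM (counts scaled to the size of the library) in unstimulated WT, 8486 and 8454 in unstimulated 3xGrk-/-, 605 and 618 in LPS-stimulated WT and 6935 and 7029 in LPS-stimulated 3xGrk-/- libraries. Of 8 dendritic cell markers, 5 were lower and 3 (Ccr7, Flt3 and Itgax) higher in 3xGrk-/- cells without LPS, and 6 were lower and 2 (Flt3 and Itgax) higher with LPS, and none was at 0 in every library. The 3 eosinophil markers summed to 881 to 952 CPM in WT and 35.5 to 56.1 CPM in 3xGrk-/- libraries, and the 4 markers of dividing cells to 496 and 514 CPM in unstimulated WT against 47.2 to 101 CPM in all other libraries. The 8 neutrophil markers summed to 742 and 698 CPM in unstimulated WT, 532 and 515 in unstimulated 3xGrk-/-, 335 and 391 in LPS-stimulated WT and 186 and 202 in LPS-stimulated 3xGrk-/- libraries, and LPS lowered 4 of them in WT and 7 in 3xGrk-/- cells. Of the macrophage markers, LPS lowered 7 and raised 1 in WT and lowered 3 and raised 3 in 3xGrk-/- cells, and it lowered all 4 markers of dividing cells in both. The 5 lymphocyte and the 4 erythroid markers held 0 to 5 counts in each library. The part of these differences in the results on respiratory chain genes was not tested.

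Per length, the most abundant member was Cox8a at 253 CPM per kilobase of exon (mean of the 8 libraries), followed by Cox6b1 at 222 and Cox6a1 at 194, all small subunits of complex IV. The lowest were Ndufb2 at 1.41, Atp5s at 1.73 and Ndufb4 at 3.78 CPM per kilobase. The length is the union of all annotated exons, which is 5628 bases for Ndufb2, so its place depends on that length. Atp5s, with 171 counts in all, was also the member nearest the minimum, and Cox6b2, the testis form of Cox6b1, fell just outside with 75 counts. Those were 21 and 22 in unstimulated WT, 2 and 3 in unstimulated 3xGrk-/-, 11 and 12 in LPS-stimulated WT and 2 and 2 in LPS-stimulated 3xGrk-/- libraries. Other tissue-restricted forms were scarce: Cox6a2 and Cox7a1, the heart and muscle forms, had 24 counts each over the 8 libraries, Cox4i2, the lung form, had 2, and Ndufa4l2, Cox8b, Cox8c and Cox7b2 had 0, where a count of 0 allows up to 3 counts in a library (counting error only). The ATP synthase c subunit is made from 3 genes that encode the same mature protein. Per length Atp5g3 gave 46.5% to 53.1%, Atp5g2 33.2% to 43.6% and Atp5g1 9.96% to 14.2% of their summed level in a library. These shares depend on the union of exons, which is 2181, 1675 and 4912 bases in that order. Without division by length the unstimulated WT means were 159, 86.9 and 82.3 CPM. Of the 77 members, 28 have exons that overlap another annotated gene, 25 of them on the opposite strand, among them Ndufs1, Ndufs3, Uqcrc2, Cox4i1, Cox5a, Atp5a1 and Atp5d, and the strand setting of the counting is not given in the sources used here, so their values are uncertain to that extent.

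Promoters were searched for 2 motifs known from respiratory chain genes, the NRF1 core GCGCATGC and the ETS motif CCGGAAG, on both strands in the 250 bases before each RefSeq start (GRCm38.p6). Windows were found for 63 of the 77 members, and in none of them did the NRF1 core overlap the ETS motif. The NRF1 core stood before 8 of the 63 members (12.7%), against 2.56% of 27025 genes, and the ETS motif before 12 (19.0%), against 7.83%. A match describes these letters and not a bound site. Of the 18 members with a match to either motif, 9 were called with a negative difference between the genotypes in their response to LPS. That was so for 6 of the 45 members whose window held no match, and for 16.0% of all genes. A link between the motifs and the response was not tested. The windows of 5 of these 9 are shown as examples from complexes II to V, with the matches in capitals, although for Sdhb and Atp5l that call held with only 7 of 16 other choices. The window of Cox7b is shown because it had the largest negative difference and holds no match. The 6 windows lie at chr4:140961021-140961270 on the plus strand for Sdhb, chr9:50603850-50604099 on the minus strand for Sdhd, chr4:116075071-116075320 on the minus strand for Uqcrh, chr5:115348959-115349208 on the minus strand for Cox6a1, chr9:44920743-44920992 on the minus strand for Atp5l and chrX:106015450-106015699 on the plus strand for Cox7b, each written 5′ to 3′ towards the start.
Sdhb: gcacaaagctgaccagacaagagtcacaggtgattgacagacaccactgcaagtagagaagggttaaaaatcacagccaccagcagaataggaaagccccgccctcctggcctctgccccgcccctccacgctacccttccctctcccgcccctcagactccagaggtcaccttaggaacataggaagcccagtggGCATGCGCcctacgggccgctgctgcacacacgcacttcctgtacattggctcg
Sdhd: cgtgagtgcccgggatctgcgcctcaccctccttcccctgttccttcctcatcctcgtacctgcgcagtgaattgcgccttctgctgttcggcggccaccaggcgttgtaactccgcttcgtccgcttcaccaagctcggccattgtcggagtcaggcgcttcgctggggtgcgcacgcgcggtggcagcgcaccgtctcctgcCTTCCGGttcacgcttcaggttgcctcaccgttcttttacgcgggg
Uqcrh: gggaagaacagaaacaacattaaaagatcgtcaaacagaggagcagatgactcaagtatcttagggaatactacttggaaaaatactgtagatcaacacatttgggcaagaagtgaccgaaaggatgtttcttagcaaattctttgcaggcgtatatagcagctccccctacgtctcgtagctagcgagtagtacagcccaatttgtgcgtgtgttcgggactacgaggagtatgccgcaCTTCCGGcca
Cox6a1: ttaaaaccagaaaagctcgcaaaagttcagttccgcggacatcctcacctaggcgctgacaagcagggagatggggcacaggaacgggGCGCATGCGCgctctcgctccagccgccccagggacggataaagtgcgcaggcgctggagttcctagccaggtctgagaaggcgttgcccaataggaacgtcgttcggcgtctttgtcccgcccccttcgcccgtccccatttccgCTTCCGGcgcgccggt
Atp5l: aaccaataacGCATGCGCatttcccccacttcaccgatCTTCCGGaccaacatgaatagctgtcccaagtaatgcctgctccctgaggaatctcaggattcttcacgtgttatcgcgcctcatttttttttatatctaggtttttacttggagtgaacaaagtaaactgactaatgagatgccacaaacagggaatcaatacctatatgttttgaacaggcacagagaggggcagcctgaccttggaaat
Cox7b: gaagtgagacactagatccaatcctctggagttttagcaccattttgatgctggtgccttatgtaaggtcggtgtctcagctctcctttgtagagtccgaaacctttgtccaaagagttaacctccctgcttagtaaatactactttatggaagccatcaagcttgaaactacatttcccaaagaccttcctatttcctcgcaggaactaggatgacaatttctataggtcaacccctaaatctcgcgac

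Summed over all members, the level was 7305 and 7219 CPM in unstimulated WT, 7513 and 7299 in unstimulated 3xGrk-/-, 6664 and 7285 in LPS-stimulated WT and 6387 and 6395 in LPS-stimulated 3xGrk-/- libraries. The 2 LPS-stimulated 3xGrk-/- libraries lay below the other 6, while the 2 unstimulated groups overlapped. Complex IV also had its lowest sums there, at 1306 and 1303 CPM, against 1444 and 1613 in LPS-stimulated WT. Complex V had 2446 and 2422 CPM there, against 2547 and 2785. Complex II had another order: its 4 genes summed to 404 and 426 CPM in unstimulated WT and to 438 to 470 CPM in the other 6 libraries. An exact permutation test of 2 libraries against 2 cannot give a p below 0.333, so the sums carry no test.

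**Figure D1:**
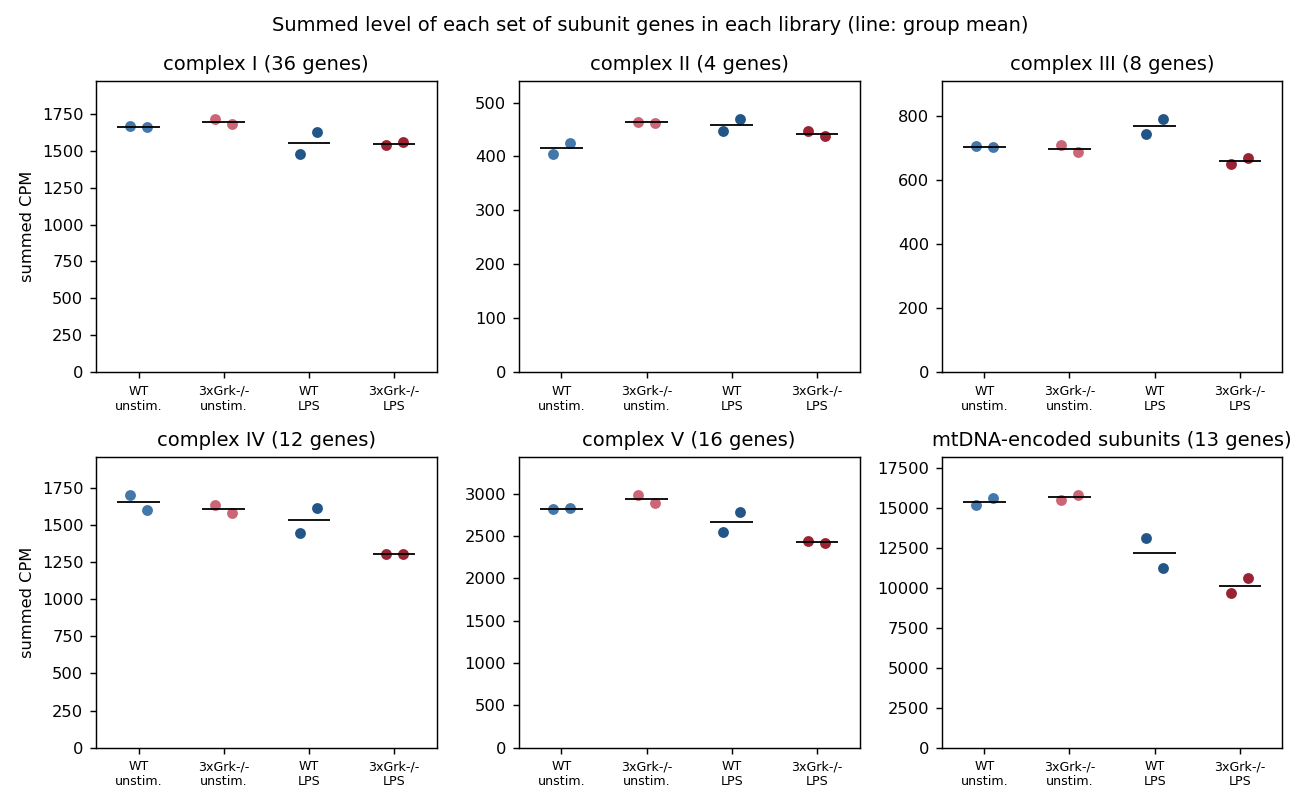
Summed CPM (y axis, from 0) of the members of each complex and of the 13 mtDNA-encoded subunit genes in each library, by group (x axis). Points are libraries and lines are means of 2 libraries. The 2 LPS-stimulated 3xGrk-/- libraries lie lowest for complexes III, IV and V and for the mtDNA-encoded genes.

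In unstimulated cells, 16 of the 77 genes were higher and 10 were lower in 3xGrk-/- than in WT cells, called where the edgeR p, corrected by Benjamini-Hochberg across the whole table, was under 0.05. That is 33.8% of the members, against 44.7% of all 12000 genes called in either direction (22.1% higher and 22.7% lower). The differences were small, from -0.60 to 0.49 on the log2 scale, and 2 members were called with a difference of at least 0.5 in either direction, compared with 23.5% of all genes. The median over the members was 0.08, and it was -0.00083 where libraries were scaled by their size only. In such bulk samples fewer cells of a type and less RNA per cell cannot be told apart.

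Complex II held the largest increases. Sdhb, the iron-sulfur subunit of succinate dehydrogenase, had 54.6 and 55.5 CPM in WT and 78.2 and 76.6 CPM in 3xGrk-/- libraries, a log2 difference of 0.49 ± 0.08 (SE; edgeR adjusted p = 3.83e-09). Sdhc, a membrane anchor of the complex, had 46.0 and 53.1 against 65.1 and 67.0 CPM, a difference of 0.40 ± 0.08 (edgeR adjusted p = 8.85e-06). The groups of neither gene overlapped. Such separation was common among the 77 members: without LPS 35 lay higher and 16 lower in 3xGrk-/- libraries with no overlap, and with LPS 14 and 26. In the response to LPS it was 15 higher and 34 lower in WT, and 9 and 51 in 3xGrk-/- cells. Sdhd, the other anchor, was higher by 0.14 ± 0.06, whereas Sdha, the catalytic flavoprotein, was not called, with 191 and 198 against 193 and 191 CPM (-0.02 ± 0.05). The next largest increases were those of Ndufc1, an accessory subunit of complex I (0.34 ± 0.13), and Uqcr10, a small subunit of complex III (0.30 ± 0.08). In complex IV 5 of 12 genes were higher, namely Cox7a2 (0.27 ± 0.07), Cox6a1 (0.23 ± 0.06), Cox8a (0.19 ± 0.05), Cox7b (0.18 ± 0.06) and Cox6b1 (0.16 ± 0.05). In complex V 2 of 16 were higher, Atp5g1 (0.19 ± 0.07) and Atp5b, the catalytic beta subunit (0.16 ± 0.04).

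The largest decrease was that of Cox7a2l, a factor that joins complexes III and IV into supercomplexes. It had 254 and 232 CPM in WT and 162 and 157 CPM in 3xGrk-/- libraries, with no overlap (-0.60 ± 0.05, edgeR adjusted p = 7.25e-33). Ndufb11, an accessory subunit of complex I, had 54.1 and 52.1 against 39.2 and 35.1 CPM (-0.51 ± 0.09). Ndufa6, another accessory subunit, had 72.6 and 69.0 against 51.3 and 48.6 CPM (-0.50 ± 0.08). Both were separated between the genotypes. Among core subunits of complex I, which carry its redox centres, Ndufs1 (-0.27 ± 0.08) and Ndufs8 (-0.24 ± 0.09) were lower, and Ndufs3, Ndufs7, Ndufv1 and Ndufv2 were not called, with values from 0.06 to 0.15. In complex III, Uqcrh, the hinge protein beside cytochrome c1, was lower by 0.33 ± 0.06 (log2 -0.33), and Uqcrfs1, the Rieske iron-sulfur protein, was at -0.22 ± 0.08.

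Of these 26 calls, 8 held with each of 12 other choices of tool, scaling, filter, fit or left-out library, although none held with the biological coefficient of variation (BCV, the spread between replicates) set to 0.2. The 8 were Sdhb, Sdhc and Uqcr10 among the higher genes and Cox7a2l, Ndufb11, Ndufa6, Uqcrh and Cox4i1 among the lower. The count of higher genes dropped to 9 without the second unstimulated WT library, where the calls lost included Cox6a1, Cox7b, Cox8a, Ndufc1 and Atp5g1 (Cox8a at 0.07), and to 8 without the first unstimulated 3xGrk-/- library, where they included Cox6b1, Cox7a2, Cox8a, Sdhd and Atp5g1 (Cox6b1 at 0.10). The calls of Ndufs1 (-0.18) and Uqcrfs1 (-0.11) were lost without the first unstimulated WT library, and also without the first (Ndufs1, -0.23) or second (Uqcrfs1, -0.16) unstimulated 3xGrk-/- library, Uqcrfs1 was at -0.35 without the second unstimulated WT library, and the call of Ndufs8 was lost without any 1 of the 4 libraries (-0.21 to -0.27).

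**Figure D2:**
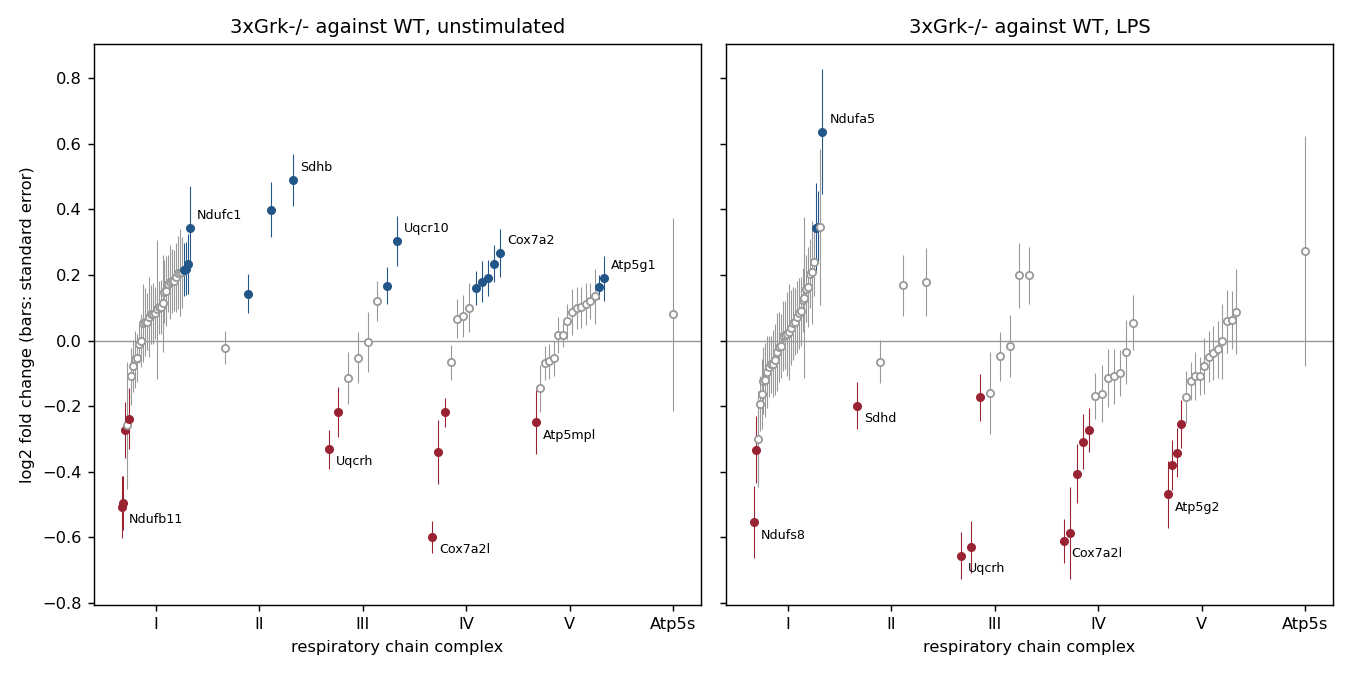
Log2 fold change of 3xGrk-/- against WT (y axis) of each of the 77 members, ordered within its complex (x axis), in unstimulated cells (left) and with LPS (right). Bars are standard errors; blue points were called higher, red points lower and open grey points were not called. All points lie between -0.66 and 0.64, and the lowest are Cox7a2l on the left and Uqcrh on the right.

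With LPS, 3 of the 77 genes were higher and 15 were lower in 3xGrk-/- than in WT cells. That is 23.4% of the members, against 48.6% of all 11830 genes called in either direction (24.7% higher and 24.0% lower). Most of the called members lay in complexes III to V, with 3 of 8, 5 of 12 and 4 of 16 genes lower and none higher, whereas in complex I 3 of 36 were higher and 2 lower. The median over the members was -0.05, and -0.14 with library size scaling.

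Uqcrh had 161 and 173 CPM in WT and 107 and 106 CPM in 3xGrk-/- libraries (-0.66 ± 0.07, edgeR adjusted p = 1.57e-07). Uqcrfs1 had 113 and 119 against 74.7 and 75.1 CPM (-0.63 ± 0.08, edgeR adjusted p = 9.19e-07). Cox7a2l had 196 and 199 against 130 and 129 CPM (-0.61 ± 0.07, edgeR adjusted p = 1.62e-07). For each of these 3 genes, the WT libraries lay far above the 3xGrk-/- libraries and the spread within a genotype was small beside the gap. Ndufs8, which carries iron-sulfur clusters of complex I, had 42.8 and 45.3 against 28.7 and 31.3 CPM (-0.55 ± 0.11). Cox5a, a structural subunit of complex IV, had 107 and 131 against 87.1 and 92.9 CPM (-0.41 ± 0.09). In ATP synthase the lower genes were Atp5g2 (-0.47 ± 0.10), Atp5h, a stalk subunit (-0.38 ± 0.08), Atp5d, the delta subunit of F1 (-0.34 ± 0.08), and Atp5f1, the b subunit of the stalk (-0.25 ± 0.07). The F1 subunits Atp5a1 (-0.12 ± 0.06), Atp5b (-0.11 ± 0.06) and Atp5c1 (-0.11 ± 0.07) were not called.

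The 3 higher genes were accessory subunits of complex I. Ndufa5 had 7.80 and 10.2 CPM in WT and 14.2 and 14.1 CPM in 3xGrk-/- libraries (0.64 ± 0.19, edgeR adjusted p = 0.00848). Ndufa8 (0.35 ± 0.11) and Ndufs5 (0.34 ± 0.14) had smaller differences. The groups of Ndufa5 did not overlap, but its level was among the lowest of the members.

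Of these 18 calls, 9 held with each of the 12 other choices, all of them lower, and none held with the BCV set to 0.2. The 9 were Uqcrh, Uqcrfs1, Cox7a2l, Ndufa4, Ndufs8, Atp5g2, Cox5a, Atp5h and Atp5d. Without the second LPS-stimulated WT library, Cox5a was at -0.24 and Atp5g2 at -0.30, and Cox4i1 was at -0.17. The 3 higher genes lost their call when 1 library was left out, Ndufa5 (0.48) and Ndufs5 (0.30) without the first LPS-stimulated WT library, Ndufs5 also without the second 3xGrk-/- library (0.20), and Ndufa8 without the second WT (0.22) or the first 3xGrk-/- library (0.33). Without the first LPS-stimulated WT library 26 members were called lower, and without the second WT library 6 were called higher. The calls of Cox4i1 (-0.25 and -0.27) and Cox7b (-0.31 and -0.29) were lost without either of the LPS-stimulated 3xGrk-/- libraries, and that of Ndufa6 (-0.27) without the second. The call of Uqcrc2 was lost without any 1 of 3 libraries (-0.16).

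The genotype comparisons in the 2 conditions have no library in common, and 7 genes were lower in both: Cox7a2l, Uqcrh, Uqcrfs1, Ndufa4, Ndufa6, Ndufs8 and Cox4i1. They are 70.0% of the 10 genes lower without LPS and 46.7% of the 15 lower with LPS, and over all 11350 genes tested in both conditions the genes lower in both were 48.8% and 43.2% of those lower in each. No member was higher in both, where 54.3% of all genes higher without LPS were also higher with it. Sdhd and Cox7b were called higher without LPS and lower with it. They are 12.5% of the 16 higher and 13.3% of the 15 lower members, near the 13.7% and 12.9% over all genes. The call of Sdhd was lost when any 1 of 3 of the 4 libraries was left out, both without LPS (0.11 to 0.15) and with it (-0.14 to -0.23). Cox4i1, the structural subunit of complex IV that all tissues express, had 310 and 313 CPM in WT and 273 and 261 CPM in 3xGrk-/- libraries unstimulated, and 226 and 255 against 197 and 201 CPM with LPS. Its differences of -0.22 ± 0.04 and -0.27 ± 0.07 were modest but without overlap in either condition.

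**Figure D3:**
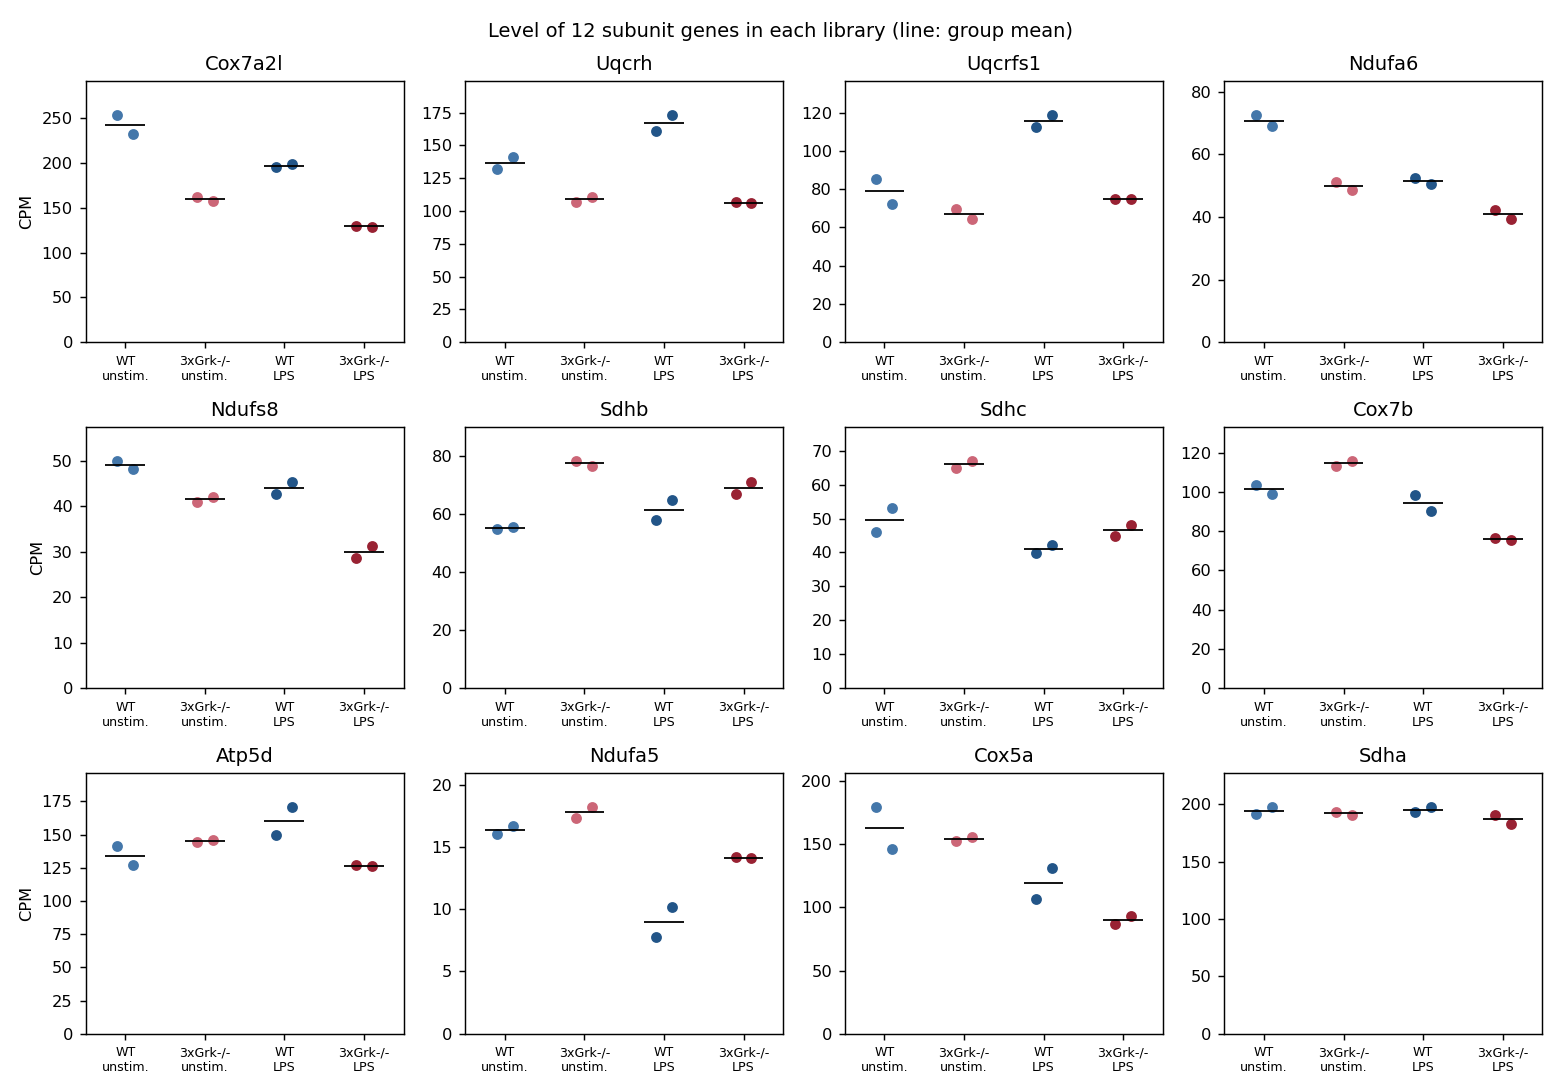
CPM (y axis, from 0) of 12 members in each of the 8 libraries, by group (x axis). Points are libraries and lines are means of 2 libraries. Cox7a2l is lower in 3xGrk-/- libraries in both conditions, Sdhb and Sdhc are highest in unstimulated 3xGrk-/- libraries, and Sdha lies between 183 and 198 CPM in all 8.

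In WT cells, LPS raised 11 of the 77 genes and lowered 25. That is 46.8% of the members, against 60.3% of all 12541 genes called in either direction (29.5% higher and 30.8% lower). The largest decreases were those of accessory subunits of complex I, followed by genes of ATP synthase. Scaling by library size alone took the median of all genes from -0.01 to -0.23, and 2 members were then higher and 50 lower, but the members' median lay 0.06 below that of all genes (-0.06) with either scaling. This distance is smaller than the spread of the members' median between single libraries, 0.154 (root of the summed squared SDs of the groups compared). For means of 2 libraries that spread would be smaller.

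Ndufa5 had 16.0 and 16.7 CPM in unstimulated and 7.80 and 10.2 CPM in LPS-stimulated WT libraries (-0.85 ± 0.17, edgeR adjusted p = 7.89e-05). Ndufb5, an accessory subunit of the membrane arm of complex I, had 53.3 and 57.2 against 31.2 and 33.4 CPM (-0.78 ± 0.10, edgeR adjusted p = 1.36e-07). Ndufa12 fell by 0.78 ± 0.14 and Ndufb2 by 0.74 ± 0.21 on the log2 scale. None of these 4 genes overlapped between the groups, and they are among 34 members that lay lower without overlap. In ATP synthase, Atp5mpl (-0.68 ± 0.13), Atp5g1 (-0.61 ± 0.08) and Atp5g3 (-0.54 ± 0.07) were lower, and Atp5g3 went from 151 and 166 to 103 and 115 CPM. In complex IV, Ndufa4 (-0.49 ± 0.11), Cox5a (-0.44 ± 0.08), Cox4i1 (-0.37 ± 0.06) and Cox7a2l (-0.30 ± 0.06) were lower. Other genes moved up in the same cells. Uqcrfs1 rose from 85.4 and 72.3 to 113 and 119 CPM (0.57 ± 0.08, edgeR adjusted p = 3.70e-07), and Sdhd from 113 and 119 to 156 and 165 CPM (0.47 ± 0.06, edgeR adjusted p = 3.40e-07). Ndufa3 (0.38 ± 0.09), Uqcrc2, a core protein of complex III (0.37 ± 0.07), and Uqcrh (0.29 ± 0.06) also rose.

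Of these 36 calls, 17 held with each of 16 other choices, Sdhd and Uqcrfs1 among the higher and 15 among the lower genes, and with the BCV set to 0.2 only 2 of the 36 held, both lower. The count of higher genes was 6 without the second unstimulated WT library, 19 without the first and 7 without the second LPS-stimulated WT library, where Ndufa3 was at 0.24. The call of Atp5g2 (-0.20) was lost without any 1 of 7 libraries, that is all but the second LPS-stimulated WT library. Atp5g2 was at -0.06 without the first LPS-stimulated WT library. The call of Sdhc (-0.28) was lost without the second unstimulated (-0.16) or the first LPS-stimulated WT library (-0.24).

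In 3xGrk-/- cells, LPS raised 2 of the 77 genes and lowered 35. That is 48.1% of the members, against 55.4% of all genes called in either direction (28.0% higher and 27.4% lower). The members' median was -0.20, and 0.19 below that of all genes (-0.19) with either scaling, although with library size scaling no member was called higher and 60 lower. The spread of the members' median between single libraries, combined as for WT, was 0.036. The decreases reached across ATP synthase, where 13 of 16 genes were lower (median -0.25), and complex IV, where 7 of 12 were (median -0.28), whereas in complex I 11 of 36 were (median -0.11).

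Cox5a fell from 153 and 156 to 87.1 and 92.9 CPM (-0.78 ± 0.09, edgeR adjusted p = 1.62e-08). Atp5g1 fell from 93.5 and 94.5 to 56.0 and 56.4 CPM (-0.74 ± 0.08), and with Atp5g3 (-0.54 ± 0.07) and Atp5g2 (-0.52 ± 0.09) all 3 genes of the c subunit were lower. Ndufa4 fell by 0.74 ± 0.13 on the log2 scale, and Ndufb6, in the membrane arm of complex I, fell from 34.4 and 32.8 to 18.4 and 22.7 CPM (-0.71 ± 0.13). The groups of these genes did not overlap. The F1 subunits alpha, beta and gamma were lower by less, Atp5a1 at -0.23 ± 0.05, Atp5b at -0.21 ± 0.05 and Atp5c1 at -0.16 ± 0.06. Sdhc was lower (-0.50 ± 0.09) and the other 3 genes of complex II were not called. The higher genes were Ndufa3 (0.29 ± 0.09) and Uqcrq, a small subunit of complex III (0.21 ± 0.08, but -0.0063 with library size scaling).

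Of these 37 calls, 23 held with each of the 16 other choices, all of them lower, and with the BCV set to 0.2 only 1 of the 37 held. The call of Ndufa3 was lost without the second LPS-stimulated 3xGrk-/- library (0.25), that of Uqcrq without any 1 of the 4 3xGrk-/- libraries (0.20 to 0.23), and that of Atp5c1 without any 1 of 6 libraries (-0.14 to -0.17). The responses of the 2 genotypes share no library, and 18 genes were lower in both, 72.0% of the 25 in WT and 51.4% of the 35 in 3xGrk-/- cells, against 61.1% and 68.6% over all genes. They included Atp5g1, Atp5g2, Atp5g3, Cox4i1, Cox5a, Cox7a2l, Ndufa4, Ndufa12, Ndufb5 and Sdhc. Only Ndufa3 was called higher in both genotypes, 1 of the 11 members higher in WT and 1 of the 2 in 3xGrk-/- cells. Over all genes, those higher in both were 62.7% of the genes higher in WT and 66.1% of those higher in 3xGrk-/- cells. Atp5d was called higher in WT and lower in 3xGrk-/- cells. Genes with that pattern were 6.62% of all genes higher in WT and 7.13% of all genes lower in 3xGrk-/- cells. The call of Atp5d in 3xGrk-/- cells was lost without any 1 of the 4 3xGrk-/- libraries (-0.19 to -0.20), and that in WT cells without the second unstimulated WT library (0.18), and the WT value was 0.17 without the second LPS-stimulated WT library.

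**Figure D4:**
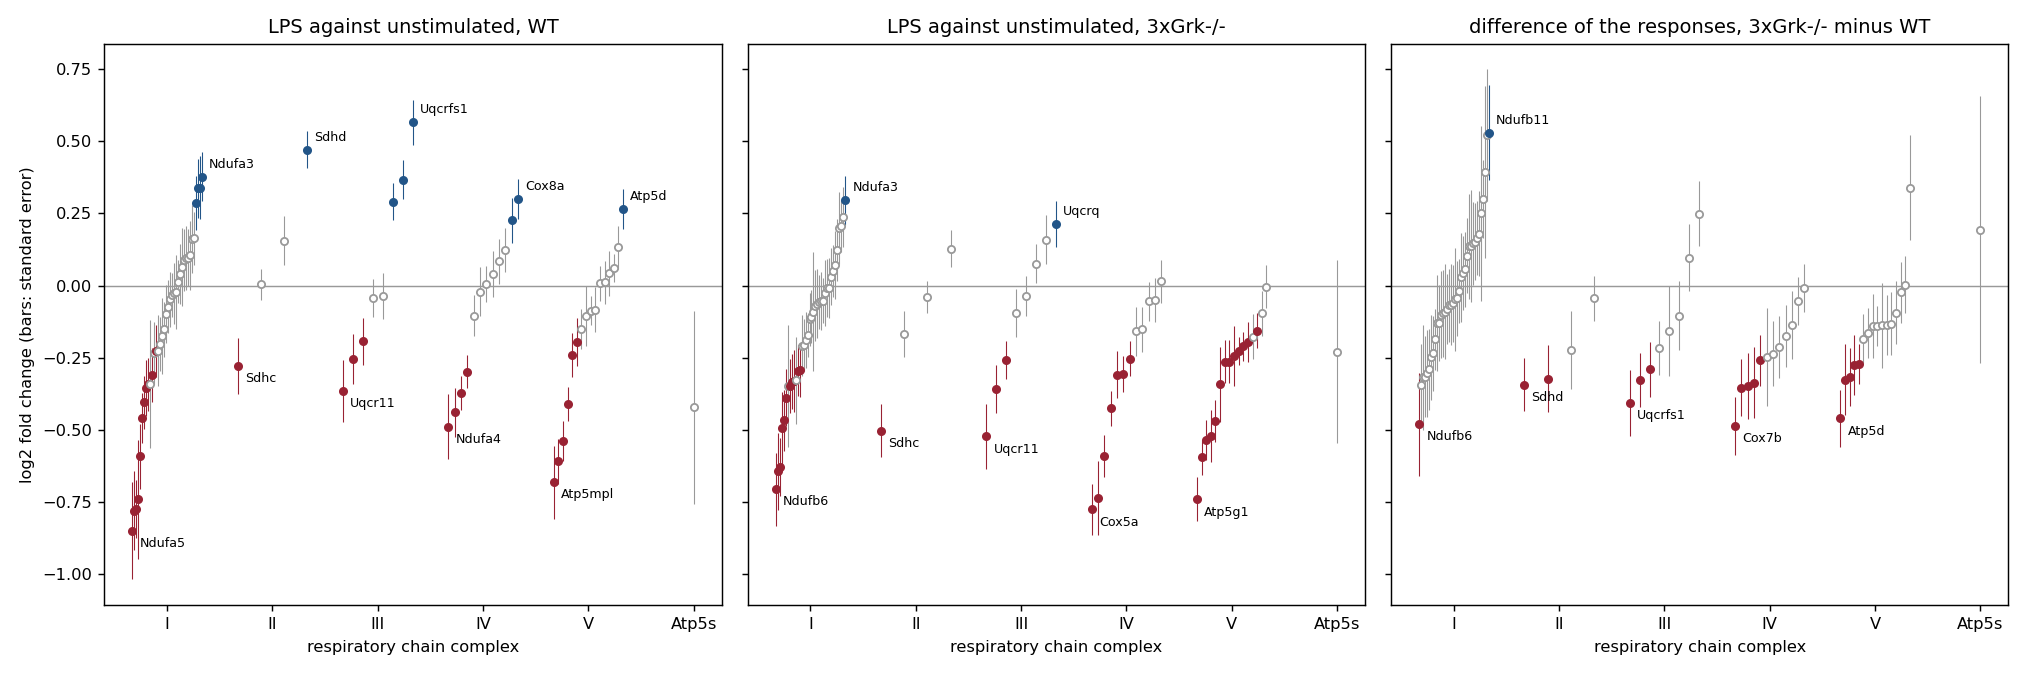
Log2 fold change of LPS-stimulated against unstimulated cells (y axis) of each member, ordered within its complex (x axis), in WT (left) and 3xGrk-/- cells (middle), and the difference of these responses (right). Bars are standard errors; blue points were called higher, red points lower and open grey points were not called. In 3xGrk-/- cells 13 of the 16 genes of complex V are red, against 6 in WT cells; with library size scaling the counts of higher and lower members differ as given in the text.

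The difference between the responses of the genotypes was tested as an interaction. LPS changed 1 member more positively in 3xGrk-/- than in WT cells and 16 members more negatively. That is 22.1% of the members, against 32.5% of all genes called in either direction (16.5% higher and 16.0% lower). Library size scaling gave the same counts. The median difference was -0.13 over the members and 0.01 over all genes, and leaving out 1 library at a time took the members' median from -0.20 to -0.03, without the first and the second LPS-stimulated WT library. The spread of the members' median between single libraries, combined over the 4 groups in the same way, was 0.158, and for means of 2 libraries it would be smaller. By complex, the called genes were 2 of 36 in complex I, 2 of 4 in complex II, 3 of 8 in complex III, 5 of 12 in complex IV and 5 of 16 in complex V, and 1 of them, Ndufb11 in complex I, was positive.

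Cox7b, a small subunit of complex IV, had 104 and 99.1 CPM unstimulated and 98.3 and 90.5 CPM with LPS in WT, but 114 and 116 CPM and then 76.7 and 75.7 CPM in 3xGrk-/- libraries. The difference of its responses was -0.49 ± 0.10 (edgeR adjusted p = 3.71e-04). Atp5d rose in WT from 141 and 127 to 149 and 171 CPM and fell in 3xGrk-/- cells from 145 and 146 to 127 and 126 CPM (-0.46 ± 0.10, edgeR adjusted p = 4.72e-04). Uqcrfs1 (-0.41 ± 0.11), Sdhd (-0.34 ± 0.09), Uqcrh (-0.33 ± 0.09) and Uqcrc2 (-0.29 ± 0.10) rose in WT, and none of these 4 was called in 3xGrk-/- cells. Sdhb had the opposite starting point: its 54.6 and 55.5 CPM in WT went to 57.7 and 64.7 CPM, and its 78.2 and 76.6 CPM in 3xGrk-/- cells to 66.7 and 71.0 CPM (-0.32 ± 0.12), and neither of its responses was called. Ndufb11 was lower in unstimulated 3xGrk-/- than in WT libraries and overlapped with LPS, with 31.8 and 38.2 against 31.1 and 39.9 CPM (0.53 ± 0.16).

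Of the 4 members whose negative difference held with each of the 16 other choices, the window of Sdhd held the ETS motif, and those of Cox7b, Atp5d and Atp5b held neither motif.

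Of the 17 calls, Cox7b, Atp5d, Sdhd and Atp5b held with each of the 16 other choices, and none of the 17 held with the BCV set to 0.2. The count of negative differences was 9 without the first and 7 without the second unstimulated WT library, 5 without the first unstimulated and 10 without the first LPS-stimulated 3xGrk-/- library, and 27 without the first LPS-stimulated WT library. Without the second unstimulated WT library the calls of Cox5a (-0.17), Uqcrc2 (-0.19), Cox8a (-0.22) and Uqcrfs1 (-0.27) were lost, and without the second LPS-stimulated WT library those of Cox6a1 (-0.16), Atp5g2 (-0.17), Cox5a (-0.18), Sdhb (-0.24) and Ndufb6 (-0.33). Any 1 of 6 libraries ended the call of Atp5g2, Sdhb or Ndufb6 when left out, any 1 of 5 that of Cox5a or Cox6b1 (to -0.19 for Cox6b1), any 1 of 4 that of Cox6a1 or Uqcrc2, and any 1 of 2 that of Cox8a or Uqcrfs1. The call of Uqcrh was lost without the first unstimulated WT library (-0.26), and that of Ndufb11 without the second unstimulated (0.45) or second LPS-stimulated 3xGrk-/- library (0.33). Atp5h was called with 12 and Atp5l with 7 of the 16 other choices.

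Ndufa4, a subunit of complex IV, has a related gene that the naming rule does not catch, AA467197, the mouse form of an LPS-induced protein that can take the place of Ndufa4. Per length, Ndufa4 had 32.5 and 34.4 CPM per kilobase in unstimulated WT, 26.5 and 26.5 in unstimulated 3xGrk-/-, 21.9 and 25.7 in LPS-stimulated WT and 13.6 and 18.1 in LPS-stimulated 3xGrk-/- libraries. AA467197 had 90.8 and 90.9, 120 and 124, 248 and 234, and 436 and 424 CPM per kilobase in the same order. The 2 genes moved in opposite directions, and the 4 groups of AA467197 did not overlap. Their ratio rose from 2.79 and 2.64 in unstimulated WT to 4.53 and 4.67 in unstimulated 3xGrk-/-, 11.3 and 9.13 in LPS-stimulated WT and 32.2 and 23.5 in LPS-stimulated 3xGrk-/- libraries. For AA467197 the log2 difference between genotypes was 0.42 ± 0.06 without and 0.84 ± 0.06 with LPS, the response to LPS was 1.41 ± 0.06 in WT and 1.82 ± 0.06 in 3xGrk-/- cells, and the difference of the responses was 0.41 ± 0.08 (edgeR adjusted p = 1.67e-04). For Ndufa4 the genotype differences were -0.34 ± 0.10 and -0.59 ± 0.14 and the difference of the responses was not called (-0.25 ± 0.17). Without the second unstimulated WT library Ndufa4 was not called in unstimulated cells (-0.30).

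**Figure D5:**
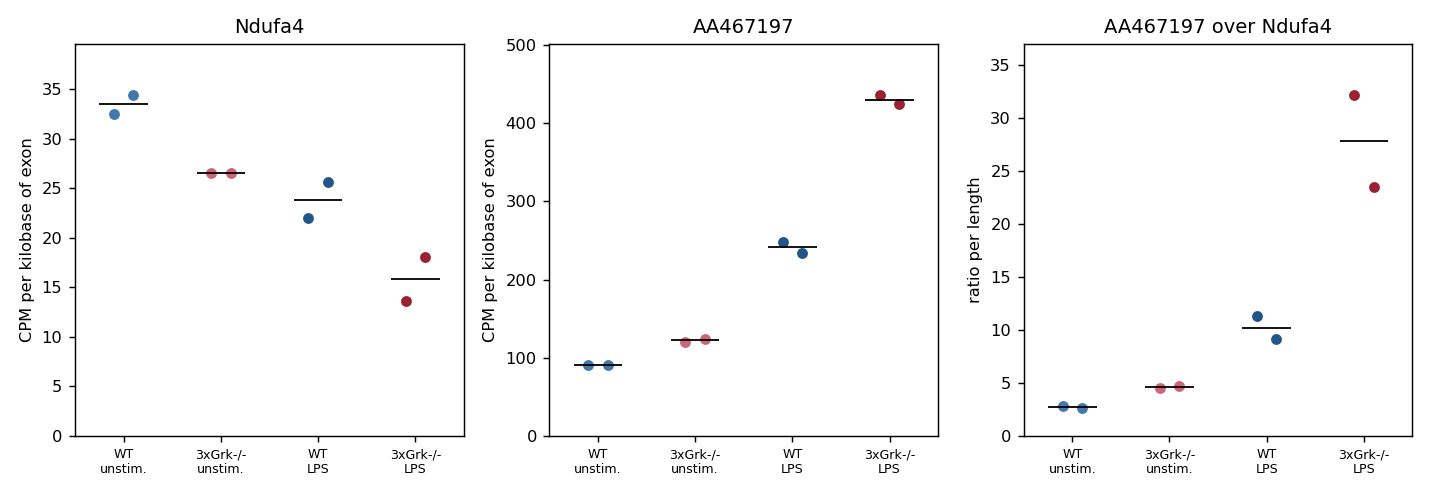
Level per length of Ndufa4 (left) and AA467197 (middle), as CPM per kilobase of exon, and their ratio (right), in each library by group; all y axes start at 0. Points are libraries and lines are means of 2 libraries. The ratio is 2.64 to 2.79 in unstimulated WT and 23.5 to 32.2 in LPS-stimulated 3xGrk-/- libraries.

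The 13 subunit genes of mitochondrial DNA complete complexes I, III, IV and V. They summed to 15211 and 15611 CPM in unstimulated WT, 15486 and 15838 in unstimulated 3xGrk-/-, 13122 and 11264 in LPS-stimulated WT and 9708 and 10595 in LPS-stimulated 3xGrk-/- libraries, so that both unstimulated groups overlapped and LPS-stimulated 3xGrk-/- libraries were the lowest. In unstimulated cells 3 were higher and 5 lower in 3xGrk-/- cells, and with LPS none was higher and 7 of 11 tested were lower, where 22.1% and 22.7% of all genes were higher and lower without and 24.7% and 24.0% with LPS. LPS lowered 11 of 13 in WT and 12 of 13 in 3xGrk-/- cells, against 30.8% and 27.4% of all genes. The response of mt-Cytb, the cytochrome b of complex III, was -0.56 ± 0.04 in WT and -0.99 ± 0.04 in 3xGrk-/- cells, and the difference was -0.43 ± 0.06 (edgeR adjusted p = 3.47e-06). That of mt-Co1, the catalytic core of complex IV, was -0.19 ± 0.04 and -0.34 ± 0.04, and the difference was not called (-0.15 ± 0.06). Counts were uneven among these genes, with 41310 on mt-Co1 and 106 on mt-Co2 in the first unstimulated WT library, and reads that such genes share with nuclear copies may be left out or split in counting, so levels are uncertain.

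Other genes around the chain were taken from fixed lists. Of 9 that belong to or feed the chain but have other names, AA467197 among them, Etfa, Etfb and Etfdh, which bring electrons from fatty acid oxidation, were lower in 3xGrk-/- cells in both conditions, with Etfdh at -0.51 ± 0.09 and -0.60 ± 0.11. Sqor, which feeds electrons from sulfide, was higher in both (0.68 ± 0.11 and 1.08 ± 0.12). Cycs, cytochrome c, was higher with LPS (0.62 ± 0.11), and Cyc1 was higher without it (0.23 ± 0.07). Gpd2, the mitochondrial glycerol phosphate dehydrogenase, rose with LPS in WT (1.64 ± 0.07) and in 3xGrk-/- cells (1.44 ± 0.08). Exons of AA467197, Etfb, Etfdh and Gpd2, and of Cox17, Hif1a and Atpif1 described next, overlap another annotated gene.

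Of 46 tested assembly factors of the complexes, 7 were higher and 4 lower in unstimulated 3xGrk-/- cells, where 22.1% and 22.7% of all genes were, and 5 and 9 of 45 with LPS, where 24.7% and 24.0% were. Tmem70, which assembles ATP synthase and complex I, had 351 and 443 counts in unstimulated WT, 522 and 469 in unstimulated 3xGrk-/-, 771 and 835 in LPS-stimulated WT and 431 and 425 in LPS-stimulated 3xGrk-/- libraries. It rose with LPS in WT (1.06 ± 0.08), was not called in 3xGrk-/- cells (-0.12 ± 0.08), and the difference was -1.18 ± 0.11 (edgeR adjusted p = 1.73e-09). The copper factors of complex IV Sco1 (-0.88 ± 0.19) and Cox17 (-0.50 ± 0.16) and the factor Cmc2 (-0.67 ± 0.16) also had negative differences, and of the 46 factors tested 7 were negative and 2 positive in the interaction, where 16.0% and 16.5% of all genes were.

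In the TCA cycle and pyruvate dehydrogenase, LPS lowered 10 of 17 genes in WT and 13 of 17 in 3xGrk-/- cells, where 30.8% and 27.4% of all genes were lower. Fh1, fumarase, was lower in 3xGrk-/- cells by 0.75 ± 0.08 without LPS (log2 -0.75) and at -1.27 ± 0.09 with LPS. Sucla2, a subunit of succinyl-CoA synthetase, was higher by 0.51 ± 0.09 and 2.17 ± 0.08. Of 8 genes known to act on respiration after LPS, of which AA467197 is also in the list of chain genes, 7 were higher in LPS-stimulated 3xGrk-/- cells (24.7% of all genes), among them Nos2, which makes nitric oxide (4.32 ± 0.08), Acod1, which makes itaconate, an inhibitor of complex II (2.32 ± 0.07), and Hif1a (1.33 ± 0.07). The 1 lower gene was Atpif1, the inhibitor of ATP hydrolysis by ATP synthase, at -0.91 ± 0.08, and -0.53 ± 0.05 without LPS. Nos2 had 0 and 2 counts in unstimulated WT libraries and 2975 and 3212 counts in LPS-stimulated 3xGrk-/- libraries.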

How the data were processed

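The authors deposited unnormalized counts (whole numbers of reads assigned to each gene) in 1 table of unstimulated and 1 of LPS-stimulated libraries, made per the labels with featureCounts on GRCm38. The annotation release and strand setting are not given in the sources used here. Gene names, coordinates and exon lengths came from GENCODE M21 (GRCm38): 47310 of 47937 IDs matched, 39192 with their version, and 0.0468% of counts lay on unmatched IDs. Promoter windows came from RefSeq.

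Both tables were joined. Genotypes were compared within each table and responses to LPS and their difference (interaction) in 1 fit of 8 libraries, with edgeR 4.0.16 (quasi-likelihood test, TMM scaling, filterByExpr, Benjamini-Hochberg over all genes tested, called at adjusted p under 0.05). The script was tested on simulated data. CPM values use TMM-scaled library sizes, and per-length values divide them by the union of exons. The common biological coefficient of variation was 0.0306 unstimulated, 0.0573 with LPS and 0.0463 over 8 libraries, and counts per library (4713305 to 6933358) limit low genes most. Libraries of a group differed beyond sampling noise in every group. Alternatives used DESeq2 1.42.0, limma 3.58.1 (voom), other scalings and filters, a replicate block and fits without 1 library.

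The members and the lists were chosen with earlier results of these data known. Genes were named by a rule: in each comparison the 4 called members with the largest change in each direction, the core subunits, members with alternative isoforms, those nearest the minimum, and the 3 highest and lowest per length. Atp5f1, Atp5h, Atp5l and Atp5mpl and genes from the lists of neighbouring pathways were chosen for mention after their values were seen. Promoter motifs were described without a test. Some single genes are not reported here.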

Additional observations from a re-analysis of the deposited data

Results flagged for a closer look

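In 17 members the response to LPS differed between the genotypes by the test of the difference itself, edgeR's interaction term at an adjusted p under 0.05 (log2, response in 3xGrk-/- minus response in WT). It was more negative in 3xGrk-/- cells for Cox7b (-0.49), Ndufb6 (-0.48), Atp5d (-0.46), Uqcrfs1 (-0.41), Cox8a (-0.35), Cox6a1 (-0.35), Sdhd (-0.34), Cox5a (-0.34), Uqcrh (-0.33), Atp5g2 (-0.33), Sdhb (-0.32), Atp5h (-0.32), Uqcrc2 (-0.29), Atp5l (-0.27), Atp5b (-0.27) and Cox6b1 (-0.26). It was more positive for Ndufb11 (0.53). Of these 17 differences, 4 held with each of 16 other choices of tool, scaling, filter, fit or left-out library, and none held with the biological coefficient of variation set to 0.2. Leaving out 1 library took Cox6a1 to -0.16, Atp5g2 and Cox5a to -0.17, Uqcrc2 to -0.19 and Cox8a to -0.22, and these calls were then lost. With 2 libraries in each group, single libraries could not be tested as outliers.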

How the results depend on the processing

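Counts below are members called higher and lower, in the order of the genotype comparison without LPS (reported as 16 and 10) and with LPS (3 and 15), the response to LPS in WT (11 and 25) and in 3xGrk-/- cells (2 and 35), and the interaction (1 and 16). DESeq2 gave 5 and 5, 0 and 10, 8 and 17, 1 and 27, and 0 and 5. Library size scaling gave 5 and 16, 1 and 24, 2 and 50, 0 and 60, and 1 and 16, with member medians of -0.00083, -0.14, -0.29, -0.41 and -0.14. It turned small positive values negative, in the response to LPS in WT among others those of Sdhb (-0.06), Sdha (-0.21), Atp5b (-0.16), Atp5c1 (-0.21) and Cox6b1 (-0.21) and in 3xGrk-/- cells among others those of Sdhd (-0.09), Cox7a2 (-0.20) and Uqcrq (-0.0063), while medians relative to all genes moved by under 0.01. The fit of all 8 libraries gave 5 higher members between genotypes with LPS, no filter gave 1 higher in 3xGrk-/- cells, and at least 10 counts in every library gave 2 positive interactions. With the biological variation (BCV) set to 0.2, an alternative added after seeing the data because the libraries may be technical, the counts were 0 and 0, 0 and 0, 0 and 2, 0 and 1, and 0 and 0.

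Leaving out 1 library gave 8 to 16 higher without LPS with medians of 0.038 to 0.094, 2 to 6 higher and 10 to 26 lower with LPS, 6 to 19 higher in WT, 0 to 5 higher in 3xGrk-/- cells, and 0 to 3 positive and 5 to 27 negative interactions. Replicate numbers are shared by the groups, but deviations of same-numbered libraries correlated by only -0.0596 to 0.0647 over 9394 genes, so they do not pair the libraries. With a replicate block the counts were 16 and 10, 3 and 14, 11 and 24, 2 and 34, and 1 and 13. The cause of these movements was not tested.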

Other observations

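Mitochondrial ribosomes translate the subunits encoded in mitochondrial DNA, and carriers move metabolites across the membranes. Of 77 mitochondrial ribosomal protein genes tested, 9 were higher and 3 lower in unstimulated 3xGrk-/- cells and 9 and 5 with LPS, with medians of 0.07 and 0.08, where 22.1% of all genes were higher and 22.7% lower without and 24.7% and 24.0% with LPS. LPS raised 9 and lowered 22 in WT and raised 10 and lowered 23 in 3xGrk-/- cells, against 29.5% and 30.8% of all genes in WT and 28.0% and 27.4% in 3xGrk-/- cells, and the difference of the responses was called for 6 in each direction, with a median of 0.00. Of 12 carriers, Slc25a4, an ADP/ATP exchanger, rose with LPS in WT (0.24 ± 0.06) and fell in 3xGrk-/- cells (-0.33 ± 0.06), a difference of -0.57 ± 0.09 in edgeR's interaction test. Slc25a5, the other abundant exchanger, fell in both genotypes, by 0.98 ± 0.05 in WT and 0.86 ± 0.06 in 3xGrk-/- cells, and the difference was not called (0.11 ± 0.08).

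Of 14 tested regulators of mitochondrial biogenesis, LPS lowered 7 in WT and 8 in 3xGrk-/- cells, against 30.8% and 27.4% of all genes. Ppargc1b, a coactivator that drives respiratory gene expression, had 10 and 20 counts in unstimulated WT and 2 and 0 in LPS-stimulated WT libraries, and 36 and 26 against 5 and 8 counts in 3xGrk-/- libraries. Esrra, its nuclear receptor partner, was higher in 3xGrk-/- cells in both conditions (0.23 ± 0.08 and 0.37 ± 0.10), and its exons overlap those of Trmt112 on the other strand and of Mir6990. Tfam, which maintains mitochondrial DNA, was lower in unstimulated 3xGrk-/- cells (-0.32 ± 0.13) and not called with LPS (0.04 ± 0.15). Mast cell and basophil markers were called lower for 2 of 3 tested genes in both conditions, neutrophil markers for 5 and 6 of 8, and stromal markers for 0 of 1 tested gene without LPS and 1 of 3 with LPS, where 2 were higher.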
